A study of Mus musculus with 12 samples.

Results

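Zfpm1, Gfi1b, Klf1 and Nfe2 encode 4 regulators of erythroid gene expression, and the DNase-hypersensitive sites around them are described here. Their sites were taken as every peak overlapping an mm9 window of 85 kb at Zfpm1 (chr8:124790000-124875000), 60 kb at Gfi1b (chr2:28440000-28500000), 25 kb at Klf1 (chr8:87415000-87440000) or 50 kb at Nfe2 (chr15:103060000-103110000). When the peaks of the 12 replicate lists were merged, the windows held 52 of the 265371 regions of the genome, with 7 at Zfpm1, 21 at Gfi1b, 8 at Klf1 and 16 at Nfe2. These regions were built from 747 replicate peaks, of which 321 lay at Zfpm1, 218 at Gfi1b, 74 at Klf1 and 134 at Nfe2. 4 regions, Zfpm1 regions 1 and 7, Gfi1b region 1 and Klf1 region 8, extended past an edge of their window and were kept whole. In RefSeq gene order the adjoining protein-coding genes are Zfp469 and Trhr2 for Zfpm1, and Gtf3c5 and Tsc1 for Gfi1b. They are Gcdh and Dnase2a for Klf1, and Hnrnpa1 and Copz1 for Nfe2. Whether a window takes in part of a neighbour was not checked, so no peak is assigned to a gene.

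The data are DNase-seq, which maps where DNase I cuts chromatin most readily, from 4 groups of 3 libraries each. G1E is a mouse erythroid line from strain 129 that lacks GATA1 through targeted disruption of its gene in embryonic stem cells, and it was profiled as asynchronous and as mitotic cells. G1E-ER4, a G1E subline in which GATA1 activity can be induced, was profiled at both stages after 22 h in 100 nM estradiol. For the mitotic groups, cells of either line spent 7 h in nocodazole at 200 ng/ml and were then sorted by flow cytometry on histone H3 phosphorylation. The presence of GATA1, exposure to estradiol and the identity of the subline therefore changed together and cannot be told apart, and the same holds for mitosis and nocodazole. The labels do not say whether the libraries of a group are separate cultures. The spread that the p-values measure is that between these libraries, which may be technical. Peak lists hold no transcripts, so neither the GATA1 state nor the cell type could be checked from marker genes.

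Zfpm1 encodes FOG1, a zinc finger protein that binds GATA1 and without which GATA1 cannot regulate much of its erythroid programme. Gfi1b encodes a zinc finger repressor that recruits chromatin-modifying complexes, Klf1 encodes the erythroid Krüppel-like factor that binds CACC boxes of globin and other erythroid genes, and Nfe2 encodes the p45 subunit of NF-E2, which pairs with a small Maf protein. GATA1 binds GATA motifs in the regulatory elements of many erythroid genes, and a DNase-hypersensitive site marks DNA that is open for such binding. In mitosis most transcription stops and many factors leave the chromosomes, while part of the accessible sites stays open.

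Promoter sequences, from 250 bases before to 50 after the annotated start, were at hand for 3 of the 4 genes (RefSeq, GRCm38.p6), and they are shown because GATA motifs are the sites that the factor differing between the lines reads. Capitals mark each match to AGATAA or AGATAG or TGATAA or TGATAG on either strand. They lie at chr8:122281891-122282190 on the plus strand for Zfpm1, chr2:28621933-28622232 on the minus strand for Gfi1b and chr8:84901732-84902031 on the plus strand for Klf1.
Gfi1b promoter: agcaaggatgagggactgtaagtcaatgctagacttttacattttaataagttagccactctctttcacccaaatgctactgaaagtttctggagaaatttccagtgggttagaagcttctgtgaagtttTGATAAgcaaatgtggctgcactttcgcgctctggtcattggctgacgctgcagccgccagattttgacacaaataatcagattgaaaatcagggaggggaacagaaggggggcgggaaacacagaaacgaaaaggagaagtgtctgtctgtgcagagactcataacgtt
Klf1 promoter: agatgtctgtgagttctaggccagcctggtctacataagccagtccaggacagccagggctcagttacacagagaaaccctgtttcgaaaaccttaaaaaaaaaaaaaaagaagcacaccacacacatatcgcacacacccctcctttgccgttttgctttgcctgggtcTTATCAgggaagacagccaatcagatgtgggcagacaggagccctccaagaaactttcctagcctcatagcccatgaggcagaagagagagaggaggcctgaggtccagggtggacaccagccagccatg
Zfpm1 promoter: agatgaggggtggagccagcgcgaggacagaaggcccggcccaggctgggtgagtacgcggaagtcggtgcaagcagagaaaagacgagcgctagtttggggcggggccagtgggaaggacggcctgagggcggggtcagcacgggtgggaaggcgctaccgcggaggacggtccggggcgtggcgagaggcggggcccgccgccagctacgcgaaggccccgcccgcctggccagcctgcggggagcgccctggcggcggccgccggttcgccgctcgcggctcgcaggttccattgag
The Gfi1b promoter held 1 GATA match that begins at position -120 from the start, and the Klf1 promoter held 1 at position -80, read on the other strand. No such match occurred in the Zfpm1 promoter, whose GC content was 73.7% against 44.3% at Gfi1b and 51.3% at Klf1. Of 32851 mouse promoters of the same length, 29.8% held a GATA match. The CACC box CCACNCCC, the kind of site that KLF1 binds, occurred once at Zfpm1 at position -74, not in the other two, and in 17.6% of all promoters on either strand. TGANTCA, the core that NF-E2 reads, was found in none of the 3 windows and in 7.81% of all promoters. A match describes letters only, and since these sequences are on another build than the peaks, no peak was placed on them and no peak is called a promoter or an intron.

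Each list held its 100000 highest peaks, so a peak is described by its rank within its list by the authors' signal, with rank 1 the strongest and a larger number a weaker peak. A region takes the best rank among the peaks of a list that overlap it, and a region without a peak was given rank 100001. The median peak width of a list ran from 356 to 1192 bp, and in each group the replicate 1 list had the widest peaks. Since wide regions join several sites, sites of 300 bp round each summit were also merged over the lists, which gave 182 in the windows, and for each the list was asked for a peak with its summit there or for any peak covering it (the covering peak). Counts of reads were not given, so depth is unknown and no counting interval could be stated.

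The 4 loci held sites that recurred in the lists. Of their 52 regions 21 were present in all 12 lists, 6 at Zfpm1, 7 at Gfi1b, 4 at Klf1 and 4 at Nfe2, which is 40.4% beside 6.15% of all regions. Regions in a single list made up 11 of the 52, or 21.2%, beside 46.3% of all, and 6 of those 11 came from replicate 1 of asynchronous G1E. The median region width was 1060.5 bp in the loci and 629 bp over all regions, and how far width and signal account for the higher recurrence was not tested. Under the rules for describing a region singly (at least 9 lists, or all lists of a group and none of another), 30 regions are described here and 22 are given by their range.

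Peaks covered a larger part of these windows than of the genome. At Zfpm1 the share of the window under peaks was 56.3% ± 32.1 (SD, n = 3) in asynchronous G1E, 77.8% ± 8.22 in mitotic G1E, 83.0% ± 11.04 in asynchronous G1E-ER4 and 64.3% ± 24.6 in mitotic G1E-ER4. Every group overlapped the others there, and the 12 lists ran from 25.6% to 94.9% with a median of 77.0%. The medians of the 12 lists were 34.4% at Gfi1b, 36.1% at Klf1 and 22.7% at Nfe2, whereas whole chromosomes had 1.71% to 6.86%, with a median of 3.37%. At Nfe2 the share was 30.7% ± 14.2 and 21.6% ± 2.44 in asynchronous and mitotic G1E, and 24.9% ± 4.10 and 16.7% ± 6.55 in asynchronous and mitotic G1E-ER4. In asynchronous G1E and in mitotic G1E-ER4 the replicate 1 list, with the widest peaks of its group, covered the largest share of each of the 4 windows.

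**Figure D1:**
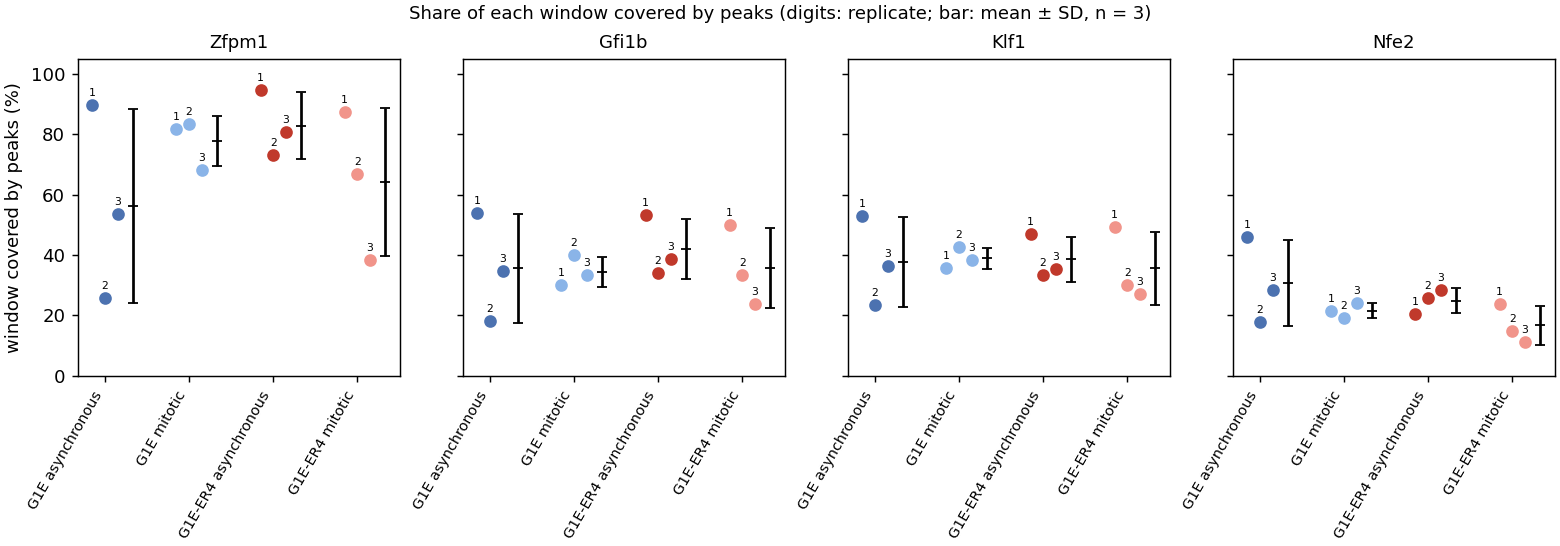
Share of each window under peaks, in percent on the vertical axis, by group on the horizontal axis, with 1 panel each for Zfpm1, Gfi1b, Klf1 and Nfe2. Points are lists with their replicate number, and the black bars show the mean and SD of 3 lists. Zfpm1 stands highest, with lists from 25.6% to 94.9%, and the groups overlap in every window.

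The Zfpm1 window was occupied almost end to end. Its 321 replicate peaks merged into only 7 regions, and 6 of these were wider than 3000 bp. The largest, region 2, spanned 46857 bp (chr8:124804302-124851158) and the adjoining region 1 spanned 22073 bp (chr8:124780997-124803069). A single peak of asynchronous G1E replicate 1 was 32107 bp wide and one of asynchronous G1E-ER4 replicate 1 was 31213 bp wide. The number of peaks in the window went from 11 to 45 per list.

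Zfpm1 region 2 held the strongest peak of the locus in most lists. In replicate 2 of asynchronous and of mitotic G1E it was region 1, at 6574 and 2889. The ranks of region 2 were 806, 7203 and 1813 in asynchronous G1E, and 472, 3055 and 1544 in mitotic G1E. In G1E-ER4 they were 1316, 2500 and 1470 in asynchronous cells, and 528, 2301 and 2992 in mitotic cells. Replicate 2 of asynchronous G1E was the weakest list, and the 4 groups overlapped. In the lists pooled by the authors the region ranked 1535 and 966 in asynchronous and mitotic G1E, and 2125 and 790 in asynchronous and mitotic G1E-ER4. Several summits shared the region. The summit near position 124805837 was found in 11 lists and lay under a peak in all 12, and the summits near 124818261 and 124833407 likewise recurred in 11 lists within 70 and 134 bp. Region 1 had its recurring summit near 124797242, in 11 lists within 60 bp, and its ranks ran from 2889 to 8702.

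Zfpm1 regions 3 and 4 ranked higher in G1E-ER4 than in G1E in every list of both stages. For region 3 (chr8:124851292-124856361, 5070 bp) the ranks were 14452, 27977 and 25112 in asynchronous G1E and 9911, 14523 and 12585 in mitotic G1E, against 8215, 6761 and 5712 in asynchronous and 7336, 7322 and 7506 in mitotic G1E-ER4. The lists of both lines did not overlap within either stage, and the 6 G1E-ER4 ranks were all stronger than the 6 G1E ranks. The mean log10 rank was lower by 0.36 in G1E-ER4 (difference -0.36, exact stratified permutation test, two-sided, p = 0.005, the smallest value possible, adjusted p = 0.121). Its summit, near position 124853614, was present in all 12 lists within 343 bp.

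Region 4 of Zfpm1 (chr8:124856626-124866393, 9768 bp) ranked 14213, 16428 and 16904 in asynchronous G1E and 12645, 12815 and 12564 in asynchronous G1E-ER4. In mitosis the ranks were 19166, 13230 and 16380 in G1E and 6526, 12094 and 10029 in G1E-ER4. The gap was smaller than at region 3 (log10 difference -0.168, exact permutation p = 0.005, adjusted p = 0.121). On sites of 300 bp round the summits, taking the site of best mean rank, it turned round to 0.055 by summit (exact permutation p = 0.73). Ranked by the covering peak on such sites it was -0.201 (exact permutation p = 0.05). The gap therefore depends on how the wide region is divided and ranked.

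Within region 4, a summit near position 124861992 was found in all 6 mitotic lists and in none of the 6 asynchronous ones. As a summit it ranked 57016, 13230 and 16949 in mitotic G1E and 6526, 12094 and 10029 in mitotic G1E-ER4. In asynchronous cells a peak with its summit elsewhere still covered this place, in G1E replicate 1 at rank 14213 and in the 3 G1E-ER4 lists at ranks 12645, 12815 and 12905. Only replicates 2 and 3 of asynchronous G1E had no peak there. By the covering peak the mitotic minus asynchronous difference was -0.245 in log10 rank (exact permutation p = 0.125), and the G1E-ER4 minus G1E difference was -0.507 (exact permutation p = 0.005, adjusted p = 0.143). Among the 92 sites of the loci with a summit in at least 3 lists, no other had this pattern by summit. It was a pattern of 0.0888% of such sites in the genome. By coverage, none of the 92 was in all 6 lists of a stage and in none of the other stage.

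The other Zfpm1 regions gave the lines and stages overlapping ranks. Region 5 (chr8:124866499-124869969) ran from 6867 to 31391 and region 7 (chr8:124872668-124876551) from 5295 to 19925, each with a summit in all 12 lists, near 124867014 and 124873685. Region 6 (chr8:124871386-124872503) was the weakest and the only one missing from some lists. It ranked 37890, 40796 and 59937 in asynchronous G1E and 53739, 24184 and 60439 in mitotic G1E, while in G1E-ER4 it was present only in asynchronous replicate 1 at 37169 and in mitotic replicates 1 and 3 at 26420 and 52948.

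**Figure D2:**
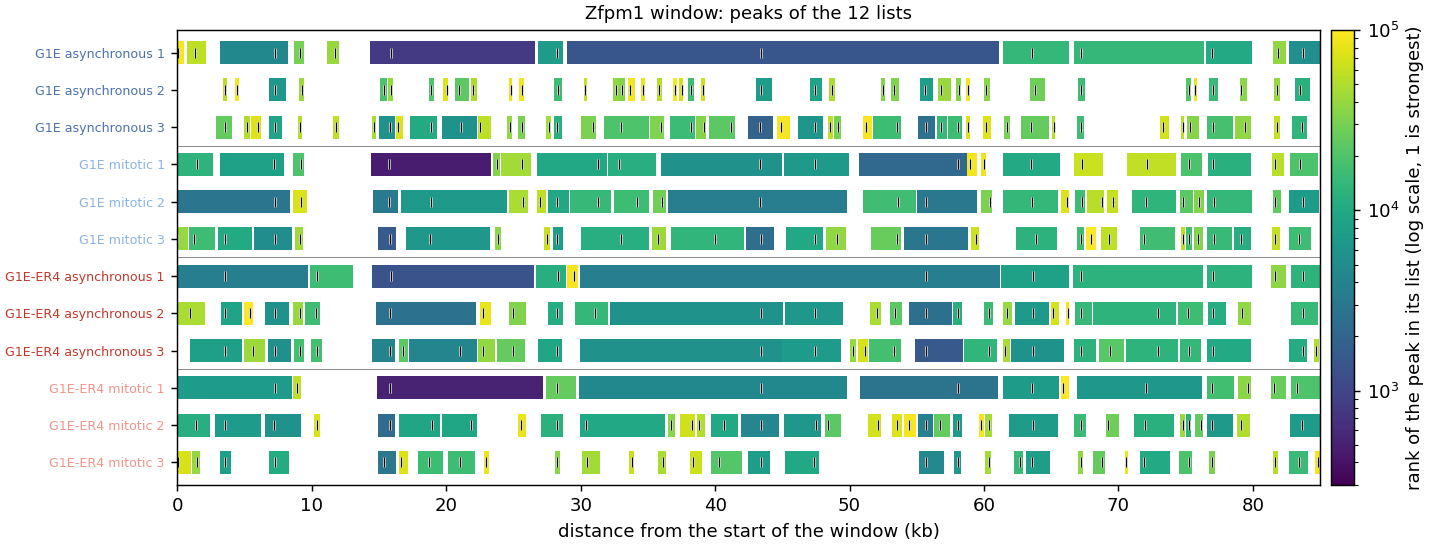
Peaks of the 12 lists along the Zfpm1 window, by distance in kb from the window start on the horizontal axis and 1 row per list; bars are peaks, coloured by their rank on a log scale, and black marks are summits. Wide peaks fill most of the window, up to 94.9% of it in a list.

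At Gfi1b the sites were narrower and more separate. The window held 21 regions, from 328 to 9536 bp wide, and 8 of them were in at least 9 lists. Of the 9 regions found in all 3 asynchronous G1E lists 7 were found in all 3 mitotic ones, and of 10 in asynchronous G1E-ER4 8 were.

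Gfi1b region 2 (chr2:28440415-28441191, 777 bp) ranked lower in mitosis in every list of both lines. Its ranks were 15281, 10347 and 11248 in asynchronous G1E and 16727, 11887 and 10769 in asynchronous G1E-ER4. Mitotic G1E replicate 1 had no peak, replicates 2 and 3 stood at 16586 and 34651, and mitotic G1E-ER4 stood at 22780, 30084 and 89903. Within each line the stages did not overlap, while the lines overlapped within each stage (mitotic minus asynchronous log10 rank 0.495, exact permutation p = 0.005, adjusted p = 0.0659). Its summit lay within 50 bp of one place, near 28440887, in 11 lists.

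Region 14 of Gfi1b (chr2:28475934-28478739, 2806 bp) followed both contrasts. The asynchronous ranks were 8628, 7808 and 8644 in G1E and 14327, 14638 and 13801 in G1E-ER4, a close set in each line, with no overlap between the lines. The mitotic ranks spread from 32402, 12502 and 9997 in G1E to 18345, 37219 and 54842 in G1E-ER4. Mitotic lists were weaker than asynchronous ones of their line in all cases (log10 difference 0.326, exact permutation p = 0.005, adjusted p = 0.0659). The line difference was 0.277 (exact permutation p = 0.04, adjusted p = 0.302), and the mitotic lists of the lines overlapped. At its main summit, near 28477445 and present in all 12 lists, the stage difference was 0.368 and the line difference 0.384, with the smallest exact permutation p of 0.005 in both, and adjusted p-values of 0.111 and 0.143 when ranked by the covering peak.

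Region 9 (chr2:28451134-28458404, 7271 bp) held the strongest peak of the locus in all 6 G1E lists, and region 21, described further on, in 5 of the 6 G1E-ER4 lists. Region 9 ranked 1275, 1962 and 1142 in asynchronous G1E, 2310, 1989 and 1365 in mitotic G1E, 2796, 2463 and 1988 in asynchronous G1E-ER4, and 4800, 3604 and 3871 in mitotic G1E-ER4. The G1E-ER4 lists ranked below the G1E lists of the same stage without overlap (log10 difference 0.285, exact permutation p = 0.005, adjusted p = 0.121), and the stage difference was 0.172 (exact permutation p = 0.02, adjusted p = 0.120). Ranked by summits in sites of 300 bp, the line difference turned round to -0.268 (exact permutation p = 0.535). The region joined sites with different contrasts. The summit near 28453837 ranked 1275, 2842 and 1142 in asynchronous and 2310, 1989 and 1365 in mitotic G1E, while the covering peaks in G1E-ER4 ranked 2796, 5116 and 6291, then 4800, 4695 and 3871. That site gave a line difference of 0.413 (exact permutation p = 0.01, adjusted p = 0.214) and a stage difference of only 0.028.

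A second summit of region 9, 4075 bp away near 28457912, had a stage difference of 0.373 (exact permutation p = 0.005, adjusted p = 0.111) and a line difference of 0.048. Its covering peaks ranked 1275, 1962 and 2115 in asynchronous G1E and 8362, 3453 and 4461 in mitotic G1E. In G1E-ER4 they ranked 2796, 2463 and 1988, then 4800, 3604 and 5603 in mitosis, so the asynchronous lists of both lines stood above their mitotic lists. Whether the sites differ from each other in these contrasts was not tested.

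Region 13 of Gfi1b (chr2:28466110-28475645, 9536 bp) kept a narrow range of ranks, from 9082 to 14606, yet its summits lay at different places among the lists. A summit near 28472594 was found in the 6 G1E-ER4 lists and in no G1E list, at ranks 14486, 9183 and 9082 in asynchronous and 13355, 14474 and 14318 in mitotic cells. Such a pattern was seen in 0.12% of the tested sites of the genome. A summit 518 bp away, near 28472076, was found in the 3 asynchronous G1E lists at 10044, 10640 and 14606, in mitotic G1E replicate 2 at 11791, and in mitotic G1E-ER4 replicate 3 at 39568. Both places lay under a peak in all 12 lists. The other mitotic G1E lists had a summit at neither place. The line difference at the first was -0.913 by summit (exact permutation p = 0.005, adjusted p = 0.245), but 0.023 by the covering peak (exact permutation p = 0.635). The summit value follows from the presence pattern for which the site was picked, so it is no separate support for a line difference.

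Region 21 of Gfi1b (chr2:28495292-28499016, 3725 bp) had the opposite sign in the line contrast. It ranked 4179, 10684 and 5926 in asynchronous G1E and 5524, 3413 and 2619 in mitotic G1E, and 2100, 2008 and 3108 in asynchronous and 2134, 2298 and 3180 in mitotic G1E-ER4. The G1E-ER4 ranks were within 3180, the G1E ranks began at 2619, and the lines overlapped only in mitosis (log10 difference -0.301, exact permutation p = 0.01, adjusted p = 0.179). Its summit lay within 39 bp round 28496489 in all 12 lists, the narrowest range among the 12 summit sites of the loci found in every list.

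Gfi1b region 12 (chr2:28461285-28465991) ranged from 13421 to 71898 with a line difference of 0.183 (exact permutation p = 0.045), which was -0.031 on sites of 300 bp (exact permutation p = 0.81). Region 1 (chr2:28437969-28440349) ranged from 6531 to 14524. Region 7 (chr2:28448164-28449482) ranked 7407, 8705 and 9141 in asynchronous G1E-ER4, above the other 9 lists, which ran from 9714 to 26293 (stage difference 0.159, exact permutation p = 0.085). 2 weak regions of the locus followed a group. Region 3 (chr2:28442669-28443163, 495 bp) was present in the 3 asynchronous G1E-ER4 lists at 44950, 95331 and 51696 and in no other, a pattern shown by 0.458% of the tested regions, and the authors' pooled list had it at 37660 in that group alone. Region 10 (chr2:28458748-28459581) was in no mitotic G1E list and, in asynchronous G1E, only in replicate 1 at 47655. It stood at 56758, 22919 and 62405 in asynchronous G1E-ER4 and at 14105 and 61984 in mitotic replicates 1 and 3 (line difference -0.305, exact permutation p = 0.06).

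**Figure D3:**
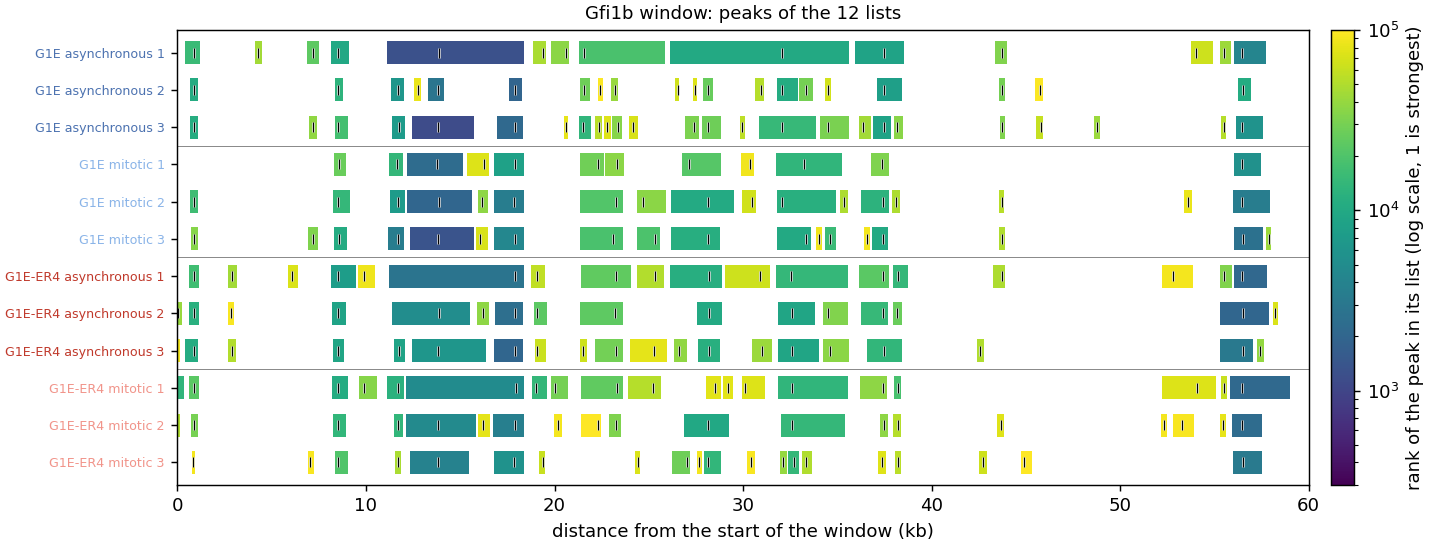
Peaks of the 12 lists along the Gfi1b window, by distance in kb from the window start on the horizontal axis and 1 row per list; bars are peaks, coloured by their rank on a log scale, and black marks are summits. The sites are narrower than at Zfpm1 and peaks cover 18.2% to 54.1% of the window.

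The Klf1 window held 4 regions that were in every list and 4 weak ones that were not. Region 6 (chr8:87432038-87435017, 2980 bp) ranked 816, 5653 and 810 in asynchronous G1E, 2745, 1213 and 1282 in mitotic G1E, 2045, 1657 and 795 in asynchronous G1E-ER4 and 1736, 1279 and 1527 in mitotic G1E-ER4. Apart from replicate 2 of asynchronous G1E, all these lists had it within rank 2745. The stage difference was 0.026 and the line difference -0.04 (exact permutation p = 0.875 and 0.86), smaller than the spread within asynchronous G1E. Its summit, near 87432496, was in all 12 lists within 72 bp.

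Region 7 of Klf1 (chr8:87435304-87438886, 3583 bp) was of the same kind, with ranks from 872 to 5058, a stage difference of 0.006 and a line difference of -0.049 (exact permutation p = 0.975 and 0.77), and a summit in all 12 lists near 87437213. A p-value that misses the threshold does not show that the groups are alike here.

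Regions 1 and 4 of Klf1 had opposite signs between the lines. Region 1 (chr8:87416310-87418684, 2375 bp) ranked 1080, 2260 and 2081 in asynchronous and 4409, 2934 and 1816 in mitotic G1E, against 6399, 4100 and 3901 in asynchronous and 10627, 3638 and 5130 in mitotic G1E-ER4. It was weaker in G1E-ER4, without overlap in asynchronous cells and with overlap in mitosis (log10 difference 0.372, exact permutation p = 0.01, adjusted p = 0.179). Region 4 (chr8:87424687-87427908, 3222 bp) ranked 9835, 20010 and 7504 in asynchronous and 12184, 7267 and 6355 in mitotic G1E, against 7567, 5769 and 6338 in asynchronous and 3482, 3645 and 4828 in mitotic G1E-ER4. It was stronger in G1E-ER4, with overlap in asynchronous cells and none in mitosis (log10 difference -0.282, exact permutation p = 0.01, adjusted p = 0.179). Its stage difference was -0.179 (exact permutation p = 0.055), the mitotic lists being the stronger ones on average.

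Klf1 region 2 (chr8:87418746-87418999, 254 bp) was the region of the locus tied to a single group. The 3 asynchronous G1E lists had it at 82325, 52675 and 84330 and no other list did, a pattern found in 3.44% of tested regions. In the authors' pooled list of that group it lay under the wide peak of region 1, at rank 1169, and the other pooled lists had no peak over it.

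The Nfe2 window held the single strongest peak of the loci, at rank 323. Region 13 (chr15:103102688-103103853, 1166 bp) ranked 1292, 799 and 323 in asynchronous G1E and 3493, 4365 and 2141 in mitotic G1E, then 5974, 3361 and 2847 in asynchronous and 6817, 3008 and 5684 in mitotic G1E-ER4. Asynchronous G1E stood above every other list, and the other 3 groups overlapped. The line difference was 0.464 (exact permutation p = 0.015, adjusted p = 0.204) and the stage difference 0.383 (exact permutation p = 0.03, adjusted p = 0.160). In the pooled lists the order was the same for asynchronous G1E, at 836 against 3321, 4467 and 5635 in mitotic G1E, asynchronous G1E-ER4 and mitotic G1E-ER4.

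Nfe2 region 6 (chr15:103087785-103089590, 1806 bp) had a like order of groups. It ranked 548, 1896 and 347 in asynchronous G1E, 2185, 4903 and 2837 in mitotic G1E, 4310, 5303 and 2511 in asynchronous G1E-ER4 and 4526, 3117 and 2696 in mitotic G1E-ER4. Asynchronous G1E again stood above the other 9 lists, which overlapped. The line difference was 0.383 (exact permutation p = 0.055), the stage difference 0.291 (exact permutation p = 0.165), and the stage difference in G1E-ER4 minus that in G1E was -0.701 (exact permutation p = 0.1, adjusted p = 0.617). The summit near 103088983 was in all 12 lists within 81 bp.

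The weaker Nfe2 regions differed in the lists that held them. Region 12 (chr15:103099253-103099901, 649 bp) was present at 11750, 18653 and 16216 in asynchronous G1E and at 50884 and 32416 in mitotic replicates 2 and 3, and it was absent from all 6 G1E-ER4 lists. Regions in all 3 asynchronous G1E lists and in no G1E-ER4 list made up 4.85% of those tested. The line difference was 0.539 (exact permutation p = 0.02, adjusted p = 0.204), and the authors' pooled lists had the region at 12438 and 69887 in asynchronous and mitotic G1E and not in G1E-ER4.

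Region 14 of Nfe2 (chr15:103104812-103105770, 959 bp) was in all 6 G1E lists, at 18889, 35704 and 29565 in asynchronous and 77356, 58165 and 32345 in mitotic cells. In G1E-ER4 it was found only in asynchronous replicates 2 and 3, at 64676 and 34526 (line difference 0.314, exact permutation p = 0.01, adjusted p = 0.179). Region 4 (chr15:103075372-103080179, 4808 bp) was in 10 lists, at 25681, 34082 and 23830 in asynchronous and 36957, 33190 and 46942 in mitotic G1E, and at 66174, 30731 and 25495 in asynchronous G1E-ER4. In mitotic G1E-ER4 it remained only in replicate 1, at 99900, close to the end of the list. Its stage difference was 0.288 (exact permutation p = 0.01, adjusted p = 0.0953). Region 8 (chr15:103090379-103091109) was found in 5 of the 6 asynchronous lists, at 43432, 33025 and 25460 in G1E and 40136 and 48092 in G1E-ER4 replicates 2 and 3, but in mitosis only in G1E replicate 2, at 95674 (stage difference 0.355, exact permutation p = 0.02, adjusted p = 0.120). A rank this near to 100000 means that a small change in signal could move the region in or out of a list.

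Of the 2 remaining recurrent Nfe2 regions, region 5 (chr15:103080480-103087609, 7130 bp) ranged from 6523 to 14804, with the groups overlapping. Region 1 (chr15:103069559-103071565, 2007 bp) ranked 6640, 18225 and 8486 in asynchronous and 2341, 7538 and 8378 in mitotic G1E, and 11571, 9521 and 12225 in asynchronous and 7715, 8948 and 8489 in mitotic G1E-ER4. The mitotic lists were stronger on average, with overlap in G1E and none in G1E-ER4 (log10 difference -0.201, exact permutation p = 0.05). As at Gfi1b region 13, its summit lay at different places, near 103070788 in 5 G1E-ER4 lists and mitotic G1E replicate 2, and 871 bp away near 103069917 in 5 G1E lists and 2 G1E-ER4 lists. All 12 lists had a peak over 103070788, and 11 had one over 103069917.

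**Figure D4:**
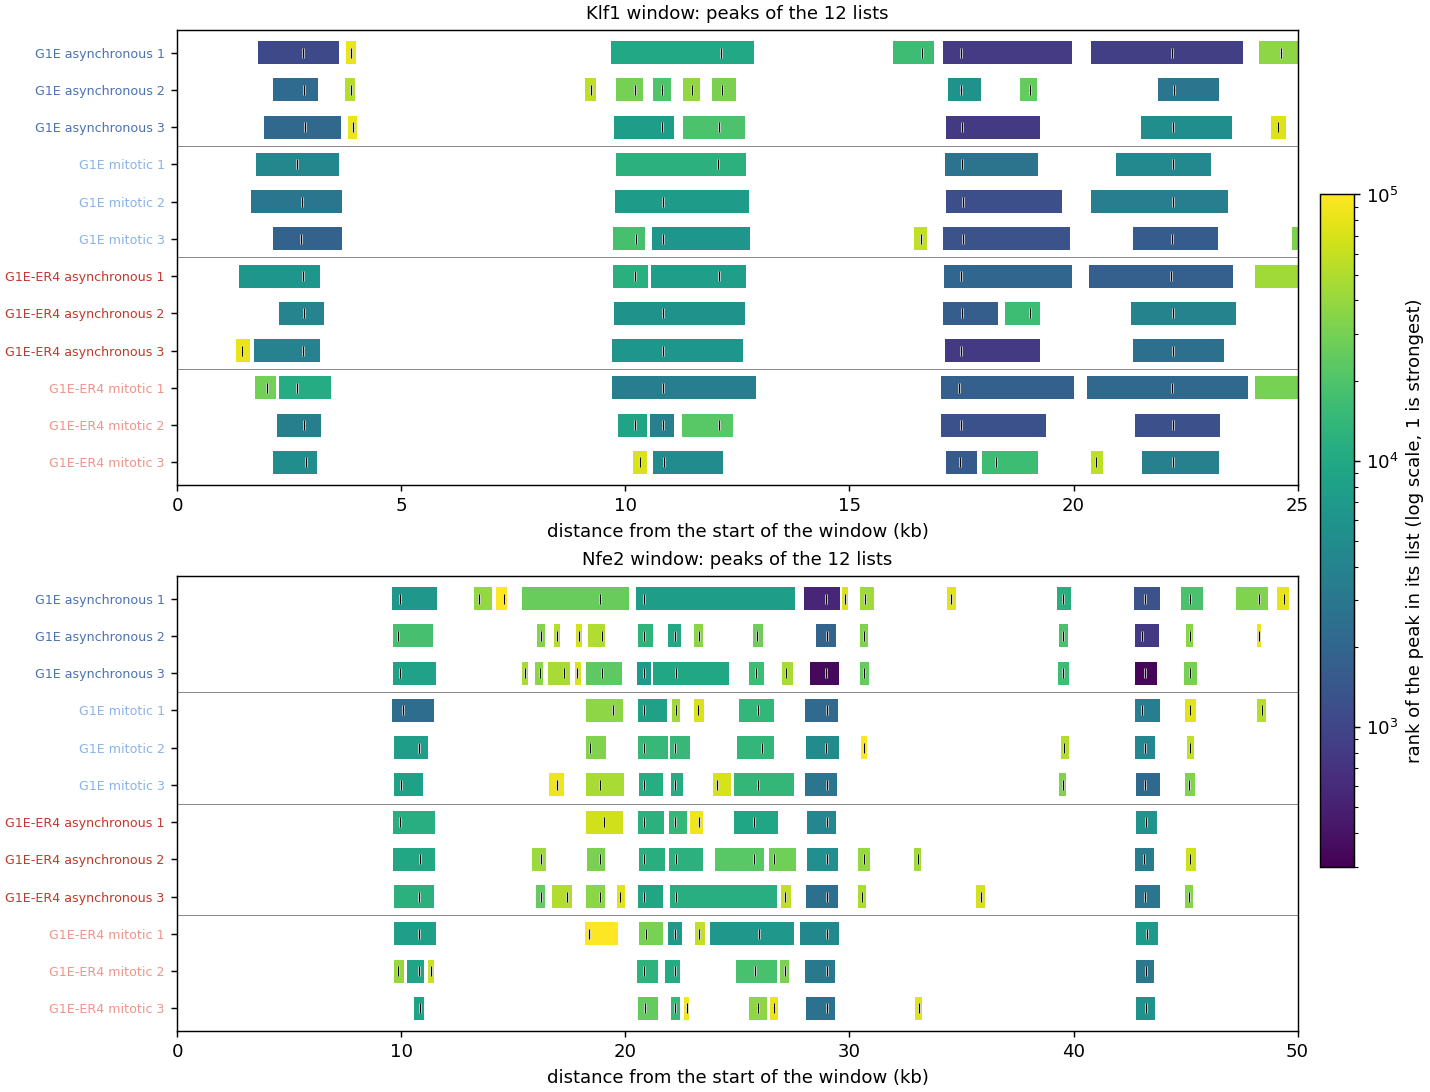
Peaks of the 12 lists along the Klf1 and Nfe2 windows, by distance in kb from the window start on the horizontal axis and 1 row per list; bars are peaks, coloured by their rank on a log scale, and black marks are summits. Klf1 has 4 merged regions in all 12 lists, and so does Nfe2, where other regions are missing from G1E-ER4 lists.

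The other 22 regions were weak or rarely found. At Gfi1b 11 of them were in 1 to 7 lists at ranks from 23940 to 98974, at Klf1 3 were in 1 to 6 lists at 16639 to 56781, and at Nfe2 8 were in 1 to 3 lists at 33356 to 98409. Of these, Gfi1b region 16 (chr2:28483245-28483989) had an unadjusted exact permutation p = 0.02 in the line contrast, with ranks of 33486, 29764 and 32846 in asynchronous G1E, 54015 and 50324 in mitotic G1E replicates 2 and 3, and in G1E-ER4 only 48438 in asynchronous replicate 1 and 75750 in mitotic replicate 2.

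Over the loci, most regions of asynchronous cells were found again in mitosis. A peak anywhere in a merged region counts as presence, and regions were wider in the loci (median 1060.5 bp, beside 629 bp over all regions). How far width and signal account for the shares given here was not tested. In G1E, 29 regions were present in all 3 asynchronous lists, and 24 of them (82.8%) were in all 3 mitotic lists, beside 51.1% of all such regions in the genome. 4 were in 1 or 2 mitotic lists, and 1, Klf1 region 2, was in none, beside 19.4%. In G1E-ER4 22 of 25 (88%) were in all 3 mitotic lists, beside 61.3%, and 1, Gfi1b region 3, was in none, beside 12.1%. Every one of the 7 Zfpm1 regions met this in G1E, and all 4 at Klf1 in G1E-ER4. Of the 24 regions in all 3 mitotic G1E lists none was missing from all asynchronous G1E lists, beside 16.6% in the genome, and of the 22 in G1E-ER4 none was, beside 3.33%.

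In rank, the loci held no region that passed the test between mitotic and asynchronous cells after adjustment over the 103666 regions in at least 3 lists (0% called, lowest adjusted p = 0.0659 by the exact permutation test). At an unadjusted p under 0.05 stood 7 of the 36 tested regions (19.4%), all ranked lower in mitosis, 3 at Gfi1b (regions 2, 9 and 14) and 4 at Nfe2 (regions 4, 8, 13 and 14). Over all tested regions 21.6% did, and their split by direction was not counted. Among regions in at least 9 lists it was 5 of 24 (20.8%) in the loci beside 40% in the genome. The common direction of the 7 depends on the cut. Just outside it, Nfe2 region 1 (-0.201, exact permutation p = 0.05) and Klf1 region 4 (-0.179, exact permutation p = 0.055) ranked higher in mitosis. Gfi1b region 16 ranked lower there (0.186, exact permutation p = 0.05). Only Gfi1b regions 2 and 14 ranked lower in mitosis in every list of both lines, a pattern of 4.82% of all tested regions, and none ranked higher in every list, beside 2.76%. The median stage difference was 0.067 in log10 rank, with 26 of 36 above 0. Over all tested regions the median was -0.0049, with 50596 of 103666 above 0.

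Between the lines no region passed either (0% called, lowest adjusted p = 0.121 by the exact permutation test). At an unadjusted p under 0.05 stood 13 of 36 (36.1%), beside 13.1% of all tested regions, and among regions in at least 9 lists 10 of 24 (41.7%), beside 25.4%. Of the 13, 9 ranked lower in G1E-ER4, namely Gfi1b regions 9, 12, 14 and 16, Klf1 region 1 and Nfe2 regions 4, 12, 13 and 14. The 4 that ranked higher in G1E-ER4 were Zfpm1 regions 3 and 4, Gfi1b region 21 and Klf1 region 4. Gfi1b and Klf1 had both signs, and a difference between the loci was not tested. The split by direction at this p was not counted over all tested regions. Ranked higher in G1E-ER4 in every list of both stages were 2 of the 36 (2.51% of all), and lower 1 (1.62% of all). In the test of the stage difference between lines none of the 36 had an unadjusted p under 0.05, beside 3.14% of all, and none was called (0%). Gfi1b region 3 and Klf1 region 2, each present in 1 group only, had an exact permutation p of 0.1 in it, as in the stage and line tests. Where the lines differ at 1 stage only, exchanging labels at the other stage changes the statistic little. The test therefore cannot decide for such regions. A line difference at both stages also widens the permuted values, which makes a small p harder to reach for those regions too.

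**Figure D5:**
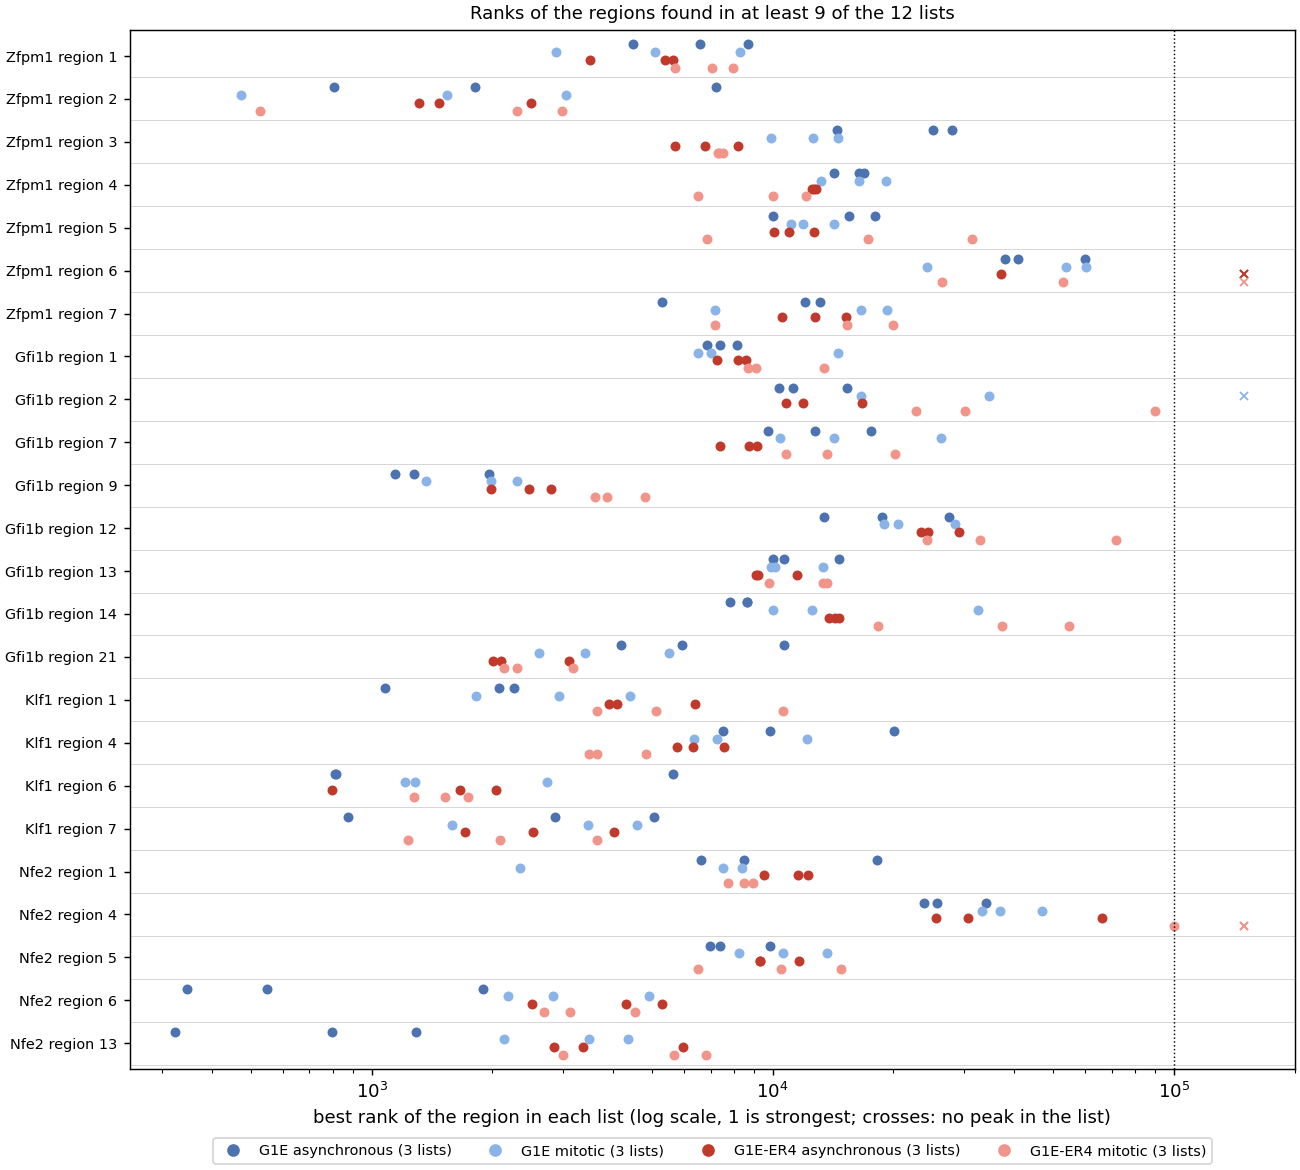
Best rank within the list on a log horizontal axis, with strong peaks to the left, for the 24 regions in at least 9 lists; each point is a list, coloured by group, crosses mark lists without a peak, and the dotted line marks rank 100000. Zfpm1 region 3 separates the lines, Gfi1b regions 2 and 14 separate the stages within each line, and Nfe2 region 13 has asynchronous G1E above the other groups.

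Counted by summit sites, the line contrast stood closer to the background than by all tested regions, most of all when ranked by the covering peak. Sites under the same wide peak share its rank there, so they are not separate values. Ranked by the peak with its summit at the site, 8 of the 92 sites tested in the loci (8.7%) had an unadjusted exact permutation p under 0.05 by stage (13.7% of all tested sites), 11 (11.96%) by line (7.67% of all) and 1 in the stage difference between lines (1.92%). Ranked by any covering peak, 14 of 163 (8.59%) had it by stage (14.9% of all) and 19 (11.7%) by line (11.3% of all), with 2 in the difference between lines (3.14%). None was called after adjustment over all sites, where the lowest adjusted p by the exact permutation test was 0.111 by stage and 0.143 by line with the covering peak.

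The procedure could not have called a few regions only. A call at the smallest p of 0.005 needs 10367 regions at that value, and 7862 reached it in the stage contrast (7.58%) and 4283 in the line contrast (4.13%). A lack of calls therefore says little about single sites, and the ranks in each list are the evidence shown.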

How the data were processed

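DNase-seq was done on asynchronous and mitotic G1E and G1E-ER4 cells, 3 libraries for each of 4 groups, with DNase I at 3 concentrations per condition per the labels' protocols. Groups and replicate numbers come from the labels. Bowtie and mm9 are named in the submitters' processing notes, while the Bowtie version, the caller of the peaks and any filter are not stated in the sources used here. The deposited lists, 12 of libraries and 4 that the authors pooled by group, hold exactly 100000 peaks each in descending order of a signal whose normalization is not stated, and the other deposited measure used is the summit's offset in base pairs. The limit by rank means that a weak site can leave a list because others rank above it. The signal served only to rank peaks within a list.

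Peaks of the 12 lists on the 19 autosomes and X were merged where they shared at least 1 bp. The value of a region in a list was log10 of the best rank, or of 100001 without a peak. Exact two-sided permutation tests over 400 arrangements permuted the stage inside each line, or the line inside each stage. P-values were adjusted by Benjamini-Hochberg over the 103666 regions in at least 3 lists, with a threshold of 0.05. Of the 52 regions 36 were in at least 3 lists, so the 16 others had no test. On simulated data of 20000 regions, 200 changed regions all reached the smallest p in the stage and line tests and none was called, while 6000 changed regions were all called in the stage test beside 218 others. The test of the stage difference between lines brought only 4.5% of 200 changed regions to the smallest p. The shift in the stage and line simulations was about 0.6 in log10 rank, larger than any such difference among the 36 tested regions. The simulated noise was normal and the same for all lists, and no region was absent from a list. These shares therefore do not give the power for the regions described here.

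Regions were described singly when in at least 9 lists, when in every list of 1 group and missing from all of another, or with an adjusted p under 0.05. Other regions or sites named were chosen after their values were seen. The windows, genes and lists were chosen with earlier results of these data known. The alternatives were 300 bp round each summit, the 50000 highest peaks, overlap of 0.5 or more of the shorter of peak and region, no minimum of lists, linear rank, presence in at least 2 of 3 lists, the pooled lists, a replicate block and leaving out each library. Chosen after seeing the data were the rank of any peak covering a 300 bp site and leaving out all 4 replicate 1 lists. No 2 lists were identical. Depth per library is unknown, so precision is given by the spread of 3 lists. No mm9 annotation or genome was used, and positions, counted from 1, were not converted between builds. Scripts ran in Python 3.11.15 with scipy 1.17.1, pandas 2.3.3, numpy 2.4.6 and, for the figures, matplotlib 3.10.9.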

Additional observations from a re-analysis of the deposited data

How the results depend on the processing

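No region of the genome was called at an adjusted p under 0.05 in the stage, line or stage-by-line test under any alternative run. Leaving out each library in turn gave 4 to 10 stage regions of the loci at an unadjusted exact permutation p under 0.05 (7 with all libraries; 4 without G1E mitotic replicate 2), and 0 to 1 in the test of the stage difference between lines, with 1 when G1E asynchronous replicate 2, mitotic replicate 1 of G1E, or mitotic replicate 2 or 3 of G1E-ER4 was left out. With 300 bp round each summit, a region was given by its site of best mean rank. The line difference then turned to 0.055 at Zfpm1 region 4, -0.268 at Gfi1b region 9 and -0.031 at Gfi1b region 12. Ranked by the covering peak, the same line differences were -0.201, 0.413 and 0.09 and did not turn. With summit ranks at 300 bp, the stage difference between lines had 1 region. Sites in all lists were 3 at Zfpm1 and 3 at Gfi1b, where wide regions are split by construction. With the rank of any covering peak, chosen after seeing the data, 14 sites of the loci had such a p by stage and 2 in the difference between lines, over 163 sites in place of 36 regions. With the replicate block the counts were 4 by stage and 6 by line (13 without it).

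Replicate numbers were not taken as pairs in the main tests. Deviations of same-numbered libraries correlated at -0.028 to 0.254 between stages (median 0.1095) and 0.06 to 0.228 between lines (median 0.1065). For different numbers the values were -0.252 to 0.178 (median -0.0835) and -0.192 to 0.142 (median -0.099). In 16 of 24 comparisons the own number was the best match. Same-numbered libraries were thus somewhat more alike, which the main tests leave out and the replicate block takes in. Without the 4 replicate 1 lists, 9 regions at Zfpm1, 9 at Gfi1b, 4 at Klf1 and 4 at Nfe2 were in all 8 lists. Keeping a side of the adjusted threshold says nothing about stability here, since no setting could call these regions. Of 360 differences of named regions under the alternatives on the log10 scale, 345 kept their direction within 1.5 times of the reported value, 12 kept it but were smaller by more than that, and 3 turned. Of the 12, the 50000 highest peaks took the stage difference of Nfe2 region 8 from 0.355 to 0.108, of region 14 from 0.252 to 0.128 and of region 4 from 0.288 to 0.157. They took the line difference of Nfe2 region 12 from 0.539 to 0.289, of region 14 from 0.314 to 0.138, of region 4 from 0.272 to 0.102 and of Gfi1b region 16 from 0.269 to 0.095. Sites of 300 bp took the stage difference of Gfi1b region 9 from 0.172 to 0.057, or 0.028 with the covering peak, and the line difference of Nfe2 region 4 to 0.118. The line difference of Gfi1b region 12 went from 0.183 to 0.09 with the covering peak and to 0.115 without G1E-ER4 mitotic replicate 3. The overlap of at least 0.5 could change nothing, since each peak lies within its region. Testing without a minimum of lists and with the replicate block could not change a difference either. They alter only which regions are tested or how labels are permuted. The agreement of these settings with the reported values was therefore fixed in advance. Unknown depth limits what absence from a list means, as does the end of each list at rank 100000.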

Other observations

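Most sites of the 4 loci had a summit in few lists but lay under peaks in many. Of the 182 sites of 300 bp, 12 had a summit in all 12 lists (6.59%, beside 2.33% of 441685 sites in the genome), 3 in each locus, whereas 50 were covered by a peak in all 12 (27.5%, beside 4.79%). At Zfpm1 3 of 81 sites had a summit in every list and 24 were covered in every list. At Klf1 the values were 3 and 8 of 16. The 12 sites had summits within 39 to 487 bp, with a median of 97 bp.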
